A study of Mus musculus with 10 samples.

Results

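The 9 genes described here encode the machinery that joins, divides and removes mitochondria: Mfn1 and Opa1 (fusion), Dnm1l, Mff and Fis1 (fission), and Pink1, Bnip3, Bnip3l and Fundc1 (mitophagy, the removal of mitochondria by autophagy). They were chosen by name, with earlier results of these data known, and all 9 were found among the 45882 gene IDs in the files. All 9 also passed the filter on low levels, which 11358 gene IDs passed. The RNA was that of left ventricular cardiac myocytes, isolated from adult mice of the C57BL/6 strain, and each of the 10 libraries carries a mouse number of its own. The groups were control mice (3 libraries), CTCF knockout mice (4 libraries) and mice with transverse aortic constriction (TAC, 3 libraries), a surgical narrowing of the aorta that puts a pressure load on the left ventricle. CTCF, a DNA-binding protein with zinc fingers, shapes chromatin loops. The labels do not give the driver or timing of the knockout, what allele the controls carry, the genotype of the TAC mice, the time after surgery, or ages beyond adult. The series states that the TAC mice had diseased hearts, and its title links loss of CTCF to heart failure.

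Mitochondria form a population that is remodelled by fusion and fission. GTPases of the dynamin family carry out both processes: mitofusins join the outer membranes, OPA1 joins the inner membranes, and DRP1, the product of Dnm1l, constricts and cuts the organelle after adaptors in the outer membrane recruit it. Damaged mitochondria are marked for autophagy by the kinase PINK1 or by receptors of the outer membrane (BNIP3, BNIP3L and FUNDC1) that bind LC3-family proteins. Cardiac myocytes are packed with mitochondria, and loss of fusion or of mitophagy genes is known to harm the heart.

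Levels are given in FPKM, fragments scaled to transcript length and library size, summed over the transcripts of a gene and rescaled between libraries, so that they can be compared between genes per length. The files hold no read counts and the depth is unknown. As a relative measure of depth, the files' coverage per unit of FPKM had medians between 3.90 and 6.09. Ctcf was 7.99 ± 1.05 FPKM in control (SD, n = 3), 3.48 ± 0.871 in knockout (n = 4) and 6.08 ± 1.10 in TAC (n = 3). The knockout libraries reached at most 4.42 and the lowest control library had 6.81. The 9 markers of cardiac myocytes summed to 33950 to 38110 FPKM in control, 27920 to 36650 in knockout and 29810 to 38100 in TAC, and none was at 0 in any library. At an adjusted p below 0.05 in limma's moderated test, 3 of them fell and 1 rose in the knockout, with a median log2 difference of -0.19. In TAC 1 fell and 1 rose, with a median of -0.14. Over all tested genes 20.8% changed in the knockout and 15.5% in TAC. Markers of other cells were also present: the 10 fibroblast markers summed to 143 to 282 FPKM in control, 242 to 373 in knockout and 269 to 332 in TAC, and the 10 macrophage and leukocyte markers to 64.2 to 91.8, 74.6 to 125 and 101 to 119. The 10 endothelial markers summed to 85.0 to 116, 99.0 to 165 and 119 to 172 in the same order, and the 7 smooth muscle and pericyte markers to 48.5 to 73.4, 42.2 to 58.6 and 46.4 to 60.3. No marker of these 4 lists was at 0 in any library. In the knockout 4 of 9 tested fibroblast, 2 of 10 endothelial, 2 of 10 leukocyte and 1 of 6 smooth muscle markers rose. Of all tested genes 10.6% rose there. The counts in TAC were 4, 0, 1 and 1 in the same order, and none of these markers fell in either comparison. Of all tested genes 15.5% were called in TAC in either direction and 7.37% were called lower. The part of the myocyte markers and of these other cells in the results below was not tested. In these bulk samples fewer cells of a type and less RNA per cell cannot be told apart. By expression of Xist, 2 of 3 control, 3 of 4 knockout and 1 of 3 TAC libraries came from female mice and the others from male mice.

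In control myocytes Pink1 was the most abundant of the 9 genes at 222 ± 19.5 FPKM (SD, n = 3), and Fundc1 the least abundant at 10.7 ± 2.86. Mfn1 (130.5 ± 12.9) and Bnip3 (109 ± 17.9) came next and overlapped each other. Opa1 (65.6 ± 6.00), Mff (56.6 ± 2.38) and Fis1 (54.3 ± 6.81) formed a middle tier in which Mff and Fis1 overlapped and Opa1 lay above both. Dnm1l (32.3 ± 2.93) and Bnip3l (29.5 ± 1.75) were lower and overlapped each other. These ranks rest on the sum over all transcripts. On coding transcripts alone Bnip3l had 8.02 ± 0.438 FPKM in control, far below Dnm1l and overlapping Fundc1 (10.7 ± 2.86), which had the higher mean. In TAC the order changed at the top, where Bnip3 averaged 179.6 ± 41.3 and Pink1 153 ± 21.3, with overlapping libraries.

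In the CTCF knockout 4 of the 9 genes fell relative to control and none rose. These were the kinase Pink1, the fusion GTPases Mfn1 and Opa1, and the fission GTPase Dnm1l. Of all tested genes, 20.8% were called in this comparison (10.2% lower and 10.6% higher), so 4 of 9 lies above the share over all genes. The 9 genes are few and were chosen with earlier results of these data known, so this excess is a description only. Called means an adjusted p below 0.05 in limma's moderated test. For the same 4 genes every knockout library lay below every control library, against 16% of all tested genes (30.8% in either direction). The median log2 difference of the 9 genes was -0.19, beside -0.0078 over all tested genes. In TAC 1 of the 9 genes was called, Pink1, which fell again, beside 15.5% of all tested genes (7.37% lower). Groups did not overlap for 4 of the 9 genes, with Bnip3 and Bnip3l higher and Mfn1 and Pink1 lower, beside 31.6% of all tested genes. The median there was -0.12, beside -0.0048 over all tested genes. Both comparisons use the same 3 control libraries.

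**Figure D1:**
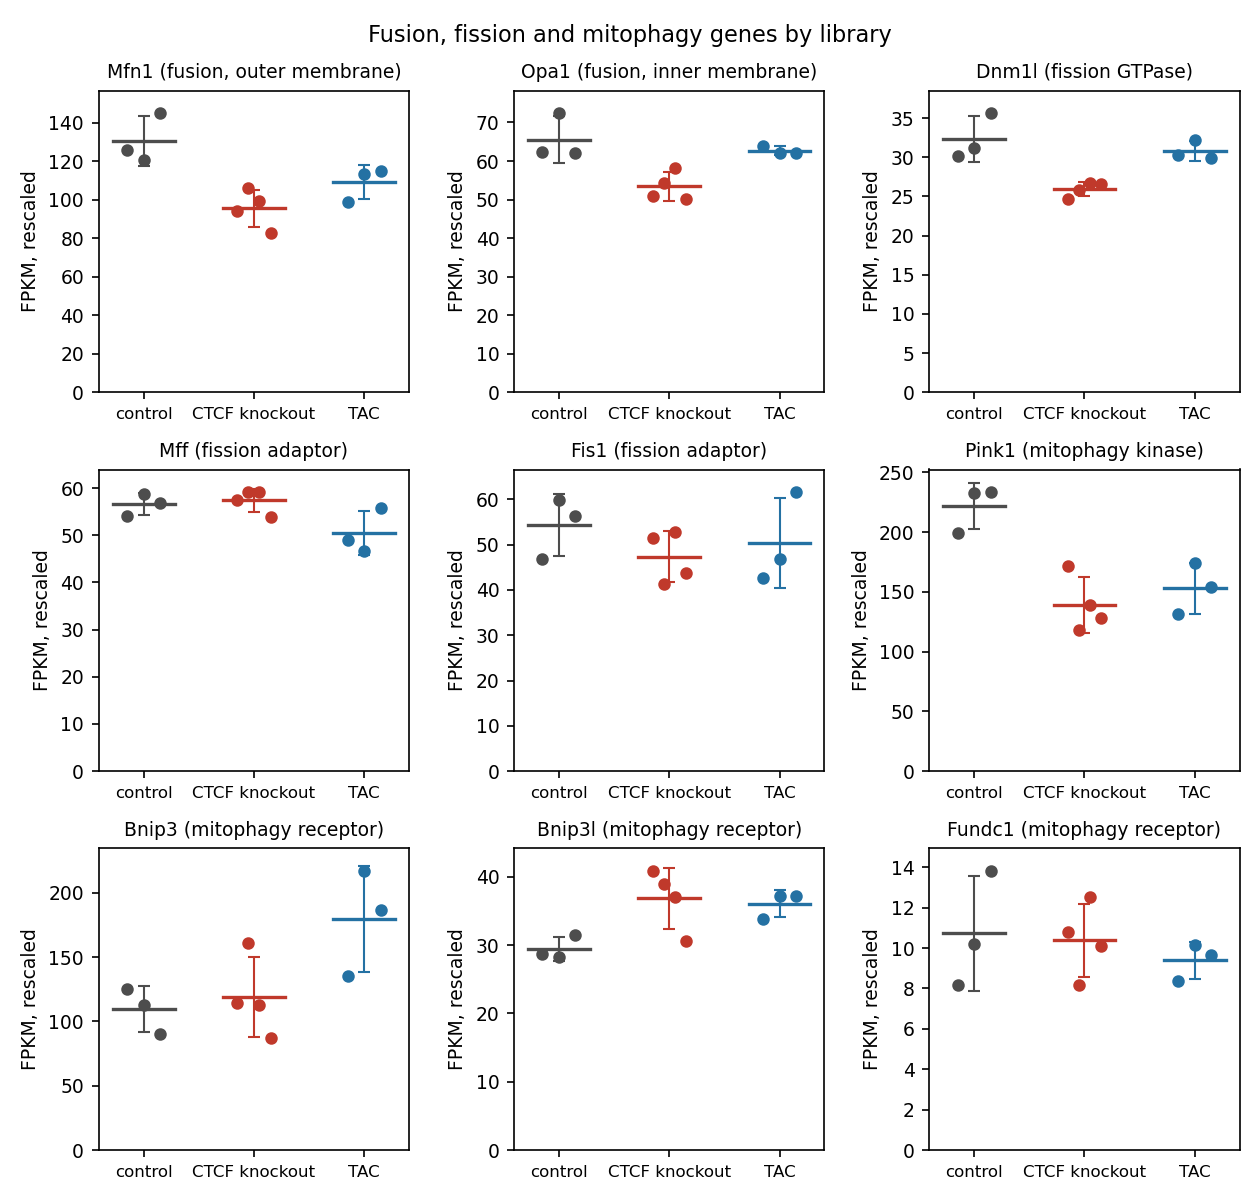
Rescaled FPKM (vertical axes, from 0) of each of the 9 genes in 3 control, 4 CTCF knockout and 3 TAC libraries. Points are libraries, horizontal lines are group means and bars are 1 SD; every knockout library lies below every control library for Mfn1, Opa1, Dnm1l and Pink1, and every TAC library lies above every control library for Bnip3 and Bnip3l.

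Mfn1 (chr3:32529465-32579239, plus strand, mm10) encodes mitofusin 1, a GTPase that tethers and fuses outer membranes. The control libraries had 126, 121 and 145 FPKM, the knockout libraries 93.9, 106, 99.2 and 82.8, and the TAC libraries 99.0, 113.5 and 115. All 7 knockout and TAC libraries lay below all 3 controls. In the knockout Mfn1 fell by 0.45 on the log2(FPKM + 1) scale (SE 0.114, limma adjusted p = 0.0166) to 73.1% of the control mean. In TAC the log2 difference was -0.25 (95% interval -0.52 to 0.01, limma adjusted p = 0.184), which did not pass the test. With coding transcripts alone, an alternative chosen after seeing the data, Mfn1 was 103 ± 7.06 FPKM in control (SD, n = 3), 81.8 ± 6.28 in knockout (n = 4) and 99.6 ± 6.07 in TAC (n = 3). TAC then overlapped control, with a log2 difference of -0.05, while the knockout lay below both groups (log2 difference from control -0.33, limma adjusted p = 0.0253). Retained-intron transcripts of Mfn1 held 16.8 to 35.6 FPKM in control, 9.42 to 18.5 in knockout and 3.76 to 16.4 in TAC, so the separation of TAC from control lay in these. The knockout call on the gene sum was lost without control replicate 3, the control library with the highest level, and without rescaling (limma adjusted p over 22 alternative settings from 0.0108 to 0.127).

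Opa1 (chr16:29579334-29654884, plus strand) encodes the inner-membrane fusion GTPase, which also keeps the cristae in shape. Control libraries had 62.2, 72.5 and 62.0 FPKM, knockout libraries 51.0, 54.4, 58.2 and 50.0, and TAC libraries 64.0, 62.0 and 62.0. The knockout libraries were the 4 lowest of the 10, and TAC overlapped control. Opa1 fell by 0.29 in the knockout (SE 0.0950, limma adjusted p = 0.0499) to 81.4% of control. This call sits at the threshold and was lost under 16 of 22 alternatives, with adjusted p from 0.00489 to 0.391. Leaving out any 1 library other than knockout replicate 3 ended it. In TAC the log2 difference was -0.06 (95% interval -0.28 to 0.16).

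Dnm1l (chr16:16312235-16359030, minus strand) encodes DRP1, which assembles around mitochondria and divides them. It had 30.2, 31.1 and 35.7 FPKM in control, 24.7, 25.9, 26.8 and 26.6 in knockout, and 30.3, 32.2 and 29.9 in TAC. The knockout libraries were again the 4 lowest, while TAC lay among the controls. Dnm1l fell by 0.30 in the knockout (SE 0.0893, limma adjusted p = 0.0331) to 80.3% of control. That call was lost under 9 of 22 alternatives (adjusted p from 0.024 to 0.309), among them the fits without control replicate 2 or 3 or without any 1 of the knockout libraries. The log2 difference in TAC was -0.07 (95% interval -0.27 to 0.14).

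Mff and Fis1, 2 of the adaptors for DRP1 in the outer membrane, did not pass the test in any comparison. Mff (chr1:82724890-82752394, plus strand) had 54.1, 58.8 and 56.9 FPKM in control, 57.4, 59.2, 59.1 and 54.0 in knockout, and 48.9, 46.7 and 55.7 in TAC. Its knockout and control ranges coincided, with a log2 difference of 0.02 (95% interval -0.18 to 0.22), and 2 of 3 TAC libraries lay below both groups. The log2 difference in TAC was -0.17 (limma adjusted p = 0.290). A gene on the opposite strand, C430014B12Rik, overlaps the span of Mff over 280 nt at a mean of 0.511 FPKM before rescaling. Gm28941, on the same strand, overlaps it over 1017 nt at 0.719 FPKM before rescaling. Overlap with exons was not computed. Fis1 (chr5:136953275-136966234, plus strand) had 46.7, 59.9 and 56.4 FPKM in control, 51.5, 41.4, 52.7 and 43.8 in knockout, and 42.6, 46.9 and 61.6 in TAC. Its groups overlapped throughout, and the log2 differences were -0.19 in knockout (95% interval -0.51 to 0.12) and -0.12 in TAC (95% interval -0.46 to 0.22).

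Pink1 (chr4:138313409-138326307, minus strand) encodes the kinase that accumulates on depolarised mitochondria and starts ubiquitin-dependent mitophagy. The control libraries had 199.5, 233 and 234 FPKM, the knockout libraries 172, 118.5, 139 and 128, and the TAC libraries 131, 174 and 154. All 7 knockout and TAC libraries lay below the lowest control. Pink1 fell by 0.68 in the knockout (SE 0.143, limma adjusted p = 0.00666) to 62.8% of control, the largest decrease among the 9 genes, and this call held under all 22 alternatives (adjusted p from 0.00194 to 0.0447). In TAC it fell by 0.54 (SE 0.153, limma adjusted p = 0.0347) to 69.0% of control, a call lost under 10 of 22 alternatives (adjusted p from 0.00952 to 0.118), including the fit with sex as a term and those without control replicate 2 or 3, knockout replicate 3 or TAC replicate 1 or 3. Knockout and TAC differed by -0.14 (95% interval -0.45 to 0.17).

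**Figure D2:**
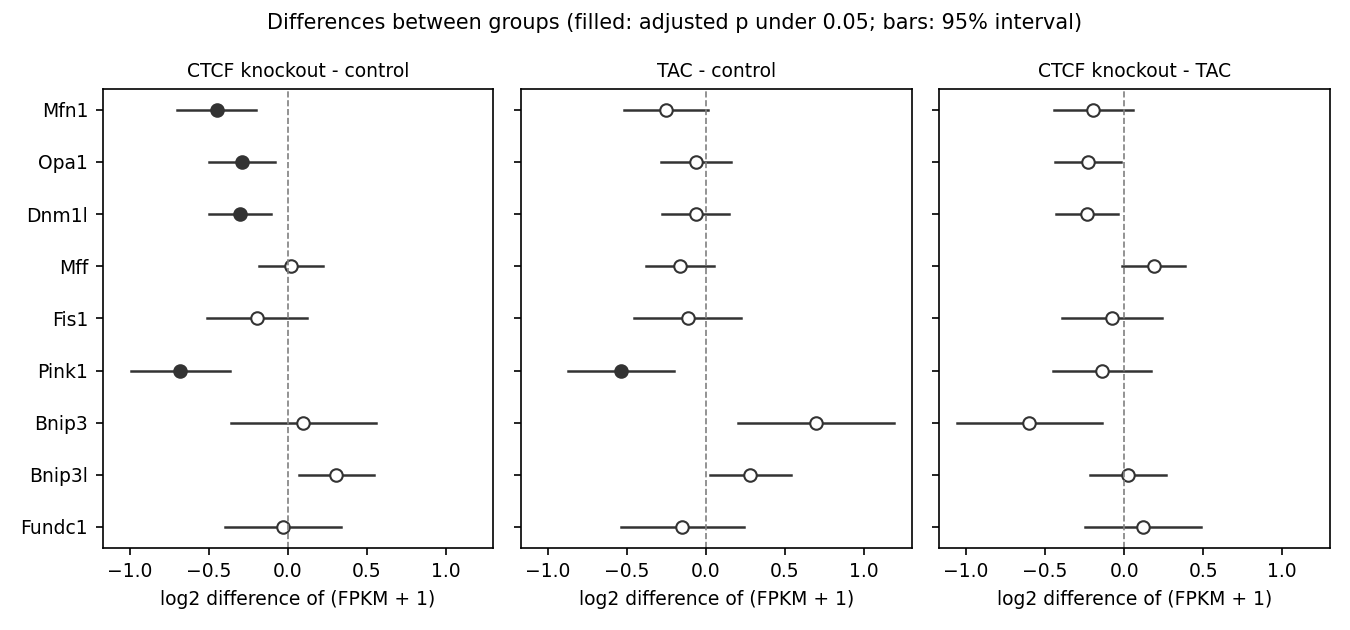
Differences in log2(FPKM + 1) between groups (horizontal axes) for the 9 genes, one panel per comparison, with 95% intervals as bars and filled points where the adjusted p was under 0.05. Filled points are Mfn1, Opa1, Dnm1l and Pink1 in knockout against control and Pink1 in TAC against control, and no point is filled in knockout against TAC.

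Bnip3 (chr7:138890836-138909519, minus strand) encodes an outer-membrane receptor that a transmembrane segment near its C terminus anchors, and that is a known target of the hypoxia-inducible factor HIF-1. Control libraries had 125, 113 and 90.1 FPKM, knockout libraries 114, 161, 113 and 87.3, and TAC libraries 135, 217 and 187. The 3 TAC libraries exceeded all 3 controls, whereas the knockout spanned the control range. The TAC mean was 164% of control, a log2 difference of 0.70 (SE 0.225, 95% interval 0.20 to 1.19, limma adjusted p = 0.0576), the largest of the 9 genes in size but not called. It was called under 7 of 22 alternatives, among them the fit without TAC replicate 1, the lowest TAC library (adjusted p over all alternatives from 0.0325 to 0.179). Knockout and control differed by 0.10 (95% interval -0.36 to 0.56), and knockout and TAC by -0.60 (95% interval -1.06 to -0.14, limma adjusted p = 0.155).

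Bnip3 was the only one of the 9 genes with a called change between its transcripts, in the knockout. The files list 5 Bnip3 transcripts, and a pair of them held nearly all of its FPKM. Bnip3-201 (ENSMUST00000106112, 1756 nt, 6 exons) encodes the full reading frame of 187 codons, not counting the stop. Bnip3-203 (ENSMUST00000130500, 719 nt, 5 exons) reads on through the first 99 bases of intron 5 (chr7:138894281-138894379) and lacks exon 6 (chr7:138890836-138891960). Its reading frame has 173 codons, again without the stop. The ends of the coding sequences, from GENCODE M21 transcripts of GRCm38, are shown because they are where the transcripts part. Lower case marks the last 30 coding bases of exon 5 that both share, and capitals mark the bases of each transcript's own up to and including the stop codon.
Bnip3-201: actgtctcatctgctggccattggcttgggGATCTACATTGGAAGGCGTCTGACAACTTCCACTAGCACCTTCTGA
Bnip3-203: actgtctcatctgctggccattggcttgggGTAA
The longer frame adds 46 bases of exon 6, and the shorter one ends after 4 bases of the intron.

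Bnip3-203 held 11.2%, 13.9% and 9.18% of the gene's FPKM in the control libraries, 22.2%, 25.7%, 27.4% and 19.9% in the knockout libraries, and 19.7%, 23.2% and 23.9% in the TAC libraries. All 7 knockout and TAC libraries lay above all 3 controls. The share rose by 12.4 percentage points in the knockout (95% interval 7.50 to 17.2, limma adjusted p = 0.0330), and the TAC difference was 10.8 points (95% interval 5.61 to 16.0, limma adjusted p = 0.0911). Bnip3-201 held 86.0% ± 2.38 in control (SD, n = 3), 74.7% ± 3.59 in knockout (n = 4) and 76.7% ± 1.42 in TAC (n = 3). Its share fell by 11.2 percentage points in the knockout (limma adjusted p = 0.0385), and the TAC difference was -9.26 points (limma adjusted p = 0.122). In FPKM, Bnip3-203 averaged 12.7 ± 3.90 in control, 28.8 ± 10.1 in knockout and 40.5 ± 12.4 in TAC, while Bnip3-201 averaged 93.9 ± 13.7, 88.4 ± 20.8 and 137.5 ± 29.6.

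Of the 40 transcripts of the 9 genes whose share was tested, 2 were called in the knockout, beside 2.32% of all 14501 transcripts tested, and none in TAC (8 at an unadjusted p under 0.05), beside 0.49% of all. Both Bnip3 calls were lost without control replicate 1 or 3, knockout replicate 1, 2 or 3, or TAC replicate 2 or 3, and 1 remained without control replicate 2 or TAC replicate 1. A measure of the whole library moved the same way: over 8141 genes the median share of the longest transcript was 32.5% to 33.7% in control libraries, 31.1% to 32.2% in knockout and 30.9% to 31.6% in TAC, and its part in the Bnip3 result was not tested. Of the 50-base words of Bnip3 transcripts, 16.6% occur in 4 other annotated genes, of which Gm16439 had 0.166 to 1.21 FPKM.

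**Figure D3:**
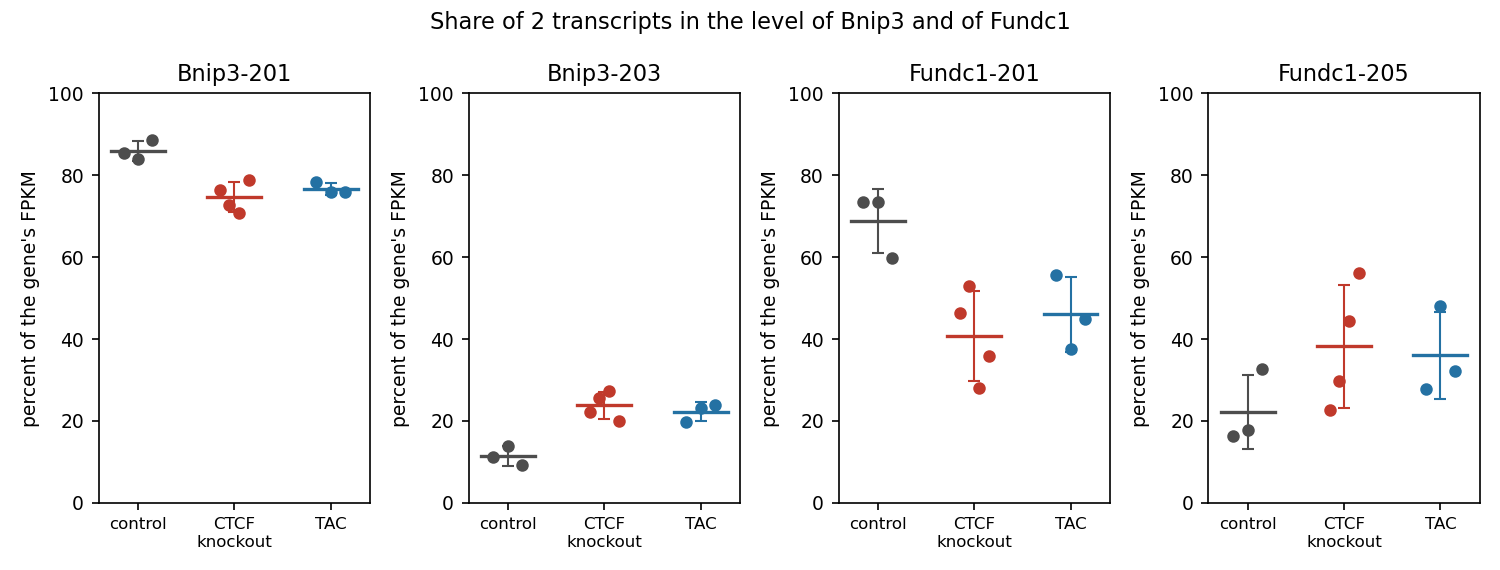
Percent of the gene's FPKM (vertical axes, 0 to 100) held by 2 transcripts of Bnip3 and 2 of Fundc1 in the 3 groups. Points are libraries, lines are means and bars are 1 SD; for Bnip3-201, Bnip3-203 and Fundc1-201 the 3 control libraries lie apart from all 7 others.

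Bnip3l (chr14:66985239-67008877, minus strand), also called Nix, encodes a receptor related to BNIP3 that is best known for clearing mitochondria from maturing red blood cells. It had 28.7, 28.3 and 31.5 FPKM in control, 40.9, 38.9, 37.0 and 30.6 in knockout, and 33.8, 37.2 and 37.2 in TAC. All TAC libraries and 3 of 4 knockout libraries lay above the controls. The log2 difference was 0.31 in knockout (95% interval 0.07 to 0.54, limma adjusted p = 0.0680) and 0.28 in TAC (95% interval 0.03 to 0.54, limma adjusted p = 0.126), and neither passed the test. The knockout difference was called under 5 of 22 alternatives, among them the fit without knockout replicate 4.

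The Bnip3l difference was located in transcripts that are not annotated as coding. On average 76.1% of its FPKM lay on such transcripts, led by Bnip3l-205 (36.3%), Bnip3l-204 (21.3%) and Bnip3l-207 (16.0%), which are short and lie within the gene. These transcripts together had 21.5 ± 1.33 FPKM in control (SD, n = 3), 28.9 ± 4.0 in knockout (n = 4) and 27.6 ± 1.55 in TAC (n = 3). The coding transcripts had 8.02 ± 0.438, 8.0 ± 0.488 and 8.48 ± 0.760 FPKM, with overlapping groups. With coding transcripts alone, an alternative chosen after these values were seen, the log2 difference in the knockout was -0.0027. The 7 erythroid markers summed to 288 to 1198 FPKM in control, 130 to 633 in knockout and 952 to 1677 in TAC, and their part in the Bnip3l level was not tested. A processed copy, Bnip3l-ps, shares 20.8% of the 50-base words of Bnip3l and had 2.08 to 2.93 FPKM.

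Fundc1 (chrX:17556564-17572325, minus strand) encodes a receptor whose binding to LC3 is known to be controlled by phosphorylation. It had 8.19, 10.2 and 13.8 FPKM in control, 10.8, 8.15, 12.5 and 10.1 in knockout, and 8.39, 10.2 and 9.66 in TAC. The groups overlapped, with log2 differences of -0.03 in knockout (95% interval -0.40 to 0.34) and -0.15 in TAC (95% interval -0.54 to 0.24). Its transcripts were less even: Fundc1-201 held 68.9% ± 7.85 of the FPKM in control (SD, n = 3), 40.7% ± 11.1 in knockout (n = 4) and 46.1% ± 9.16 in TAC (n = 3). The 3 controls lay above the other 7 libraries, and the differences of -28.2 points in knockout (limma adjusted p = 0.0852) and -22.8 points in TAC (limma adjusted p = 0.228) were not called. When each gene was represented by its highest transcript in place of the sum, Fundc1 was called lower in knockout (log2 difference -0.69) and in TAC (log2 difference -0.64).

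Shares of the other genes' transcripts were not called. Opa1-206, the longest Opa1 transcript at 6230 nt, held 50.0% ± 1.94 in control (SD, n = 3), 44.5% ± 1.71 in knockout (n = 4) and 45.7% ± 1.27 in TAC (n = 3), and the knockout difference had a limma adjusted p of 0.0924. Mfn1-201 held 18.8% ± 2.24, 23.5% ± 1.11 and 24.7% ± 0.672 in the same order, with limma adjusted p of 0.111 in knockout and 0.108 in TAC. Pink1-201 (96.2%), Fis1-201 (96.2%) and Dnm1l-201 (88.2%) held nearly the whole level of their genes on average, so their gene sums follow a single transcript. Mff was spread over 16 listed transcripts, of which Mff-202 held the largest share, 25.3%.

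Compared directly, knockout and TAC differed for none of the 9 genes in limma's test, beside 3.28% of all tested genes, and 3 genes had an unadjusted p under 0.05. These were Bnip3, above, and Opa1 and Dnm1l, for which all knockout libraries lay below all TAC libraries. Such separation, for 2 of 9 genes, was found for 9.64% of all tested genes in this direction and for 18.1% in either. Opa1 in knockout was 85.2% of TAC (log2 difference -0.23, 95% interval -0.44 to -0.02, limma adjusted p = 0.229), and Dnm1l 84.4% (log2 difference -0.24, 95% interval -0.43 to -0.04, limma adjusted p = 0.187).

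The wider pathway was described through lists that include the 9 genes. In the knockout 5 of 16 tested genes for fusion and inner-membrane shape fell and none rose, beside 20.8% of all tested genes called in either direction and 10.2% called lower. The list's median log2 difference was -0.18. Beside Mfn1 and Opa1 these were Oma1 (log2 difference -0.57, SE 0.102, limma adjusted p = 0.00284) and Yme1l1 (-0.52, SE 0.0976, limma adjusted p = 0.00356), the 2 proteases that cleave OPA1 at the inner membrane, and Slc25a46 (-0.45, SE 0.0885, limma adjusted p = 0.00468), an outer-membrane protein. In TAC 1 of the 16 fell, beside 7.37% of all tested genes called lower. It was Yme1l1 (-0.44, SE 0.104, limma adjusted p = 0.0160), and the list's median was -0.07.

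Among 12 tested fission genes 2 fell in the knockout and 1 rose, a share close to the 20.8% of all tested genes called. Those that fell were Dnm1l and Mtfp1, an inner-membrane protein that promotes fission (36.8 FPKM in knockout and 49.8 in control, limma adjusted p = 0.0329). Spire1, an actin nucleator, rose from 0.834 to 1.54 FPKM (limma adjusted p = 0.0224). The list's median was -0.06 in the knockout and -0.0018 in TAC, where none of the 12 was called.

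Of 25 tested genes for mitophagy receptors and the PINK1 pathway 4 fell in the knockout and none rose, a share below the 20.8% of all tested genes called in either direction and somewhat above the 10.2% called lower. The list's median was 0.03. The strongest was Nipsnap2 (208 FPKM in knockout and 357 in control, log2 difference -0.78, SE 0.122, limma adjusted p = 0.00129), a matrix protein that can serve as a mitophagy signal. Pink1 came next, followed by Rhot2 (-0.53, SE 0.121, limma adjusted p = 0.00991) and Rhot1 (-0.33, SE 0.0891, limma adjusted p = 0.0235), the Miro GTPases that tie mitochondria to microtubule motors and are PINK1 pathway substrates. In TAC 2 of the 25 fell, Nipsnap2 (-0.49, SE 0.131, limma adjusted p = 0.0271) and Pink1, which is near the 7.37% of all tested genes called lower, and the median was 0.08.

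Of 33 tested core autophagy genes, which build the autophagosome and deliver it to the lysosome, 2 rose in the knockout and none fell: Wipi1, which binds the phosphoinositide of forming autophagosomes (41.1 FPKM in knockout and 21.9 in control, limma adjusted p = 0.000237), and Becn1, a subunit of the lipid kinase complex that makes it (35.3 and 24.4 FPKM, limma adjusted p = 0.00275). In TAC 3 rose, Wipi1 (34.2 FPKM), Becn1 (33.3 FPKM) and Atg13 (24.4 FPKM against 14.2 in control), and Atg10 fell (7.76 against 10.6 FPKM). These counts are a smaller share than the 20.8% of all tested genes called in the knockout and the 15.5% called in TAC. The medians were -0.02 in knockout and 0.02 in TAC.

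Genes for protein import and mitochondrial mass had a median of -0.16 in the knockout and -0.06 in TAC. Of 18 tested, Hspd1, the matrix chaperonin, fell in both comparisons (160 FPKM in control, 111 in knockout and 106 in TAC). Sdha, the flavoprotein subunit of complex II, fell in TAC (246.5 against 320 FPKM). In all 1 of 18 was called in the knockout and 2 of 18 in TAC, beside 20.8% and 15.5% of all tested genes.

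**Figure D4:**
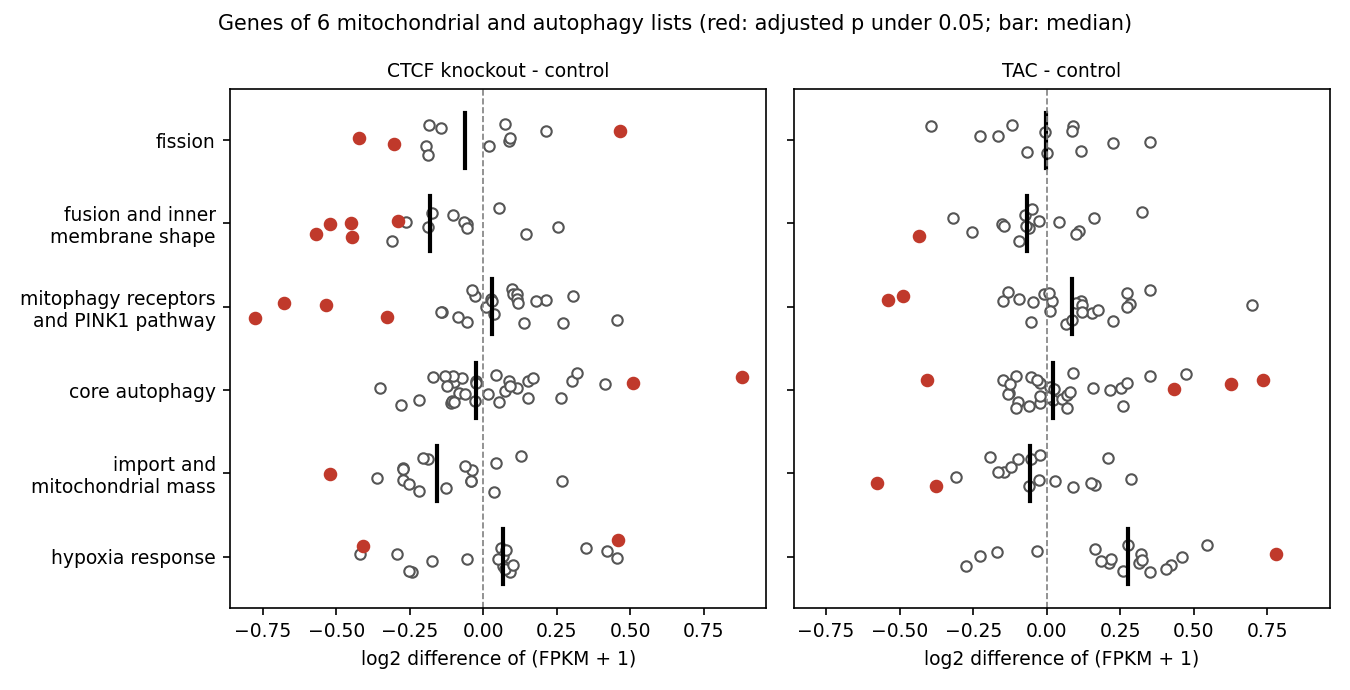
Differences in log2(FPKM + 1) from control (horizontal axes) for the tested genes of 6 lists in CTCF knockout (left) and TAC (right), with called genes in red and a bar at each list's median. The called fusion and mitophagy genes all lie below 0. Of the called core autophagy genes, 2 in the knockout and 3 in TAC lie above 0, and 1 in TAC lies below 0.

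The hypoxia list was included because Bnip3 is a known HIF-1 target. Its median was 0.28 in TAC and 0.07 in the knockout. Of 19 tested genes, Ndrg1 rose in TAC (5.59 against 2.78 FPKM, limma adjusted p = 0.0133), and in the knockout Pgk1, a glycolytic enzyme, rose (183 against 132 FPKM, limma adjusted p = 0.0329) while Egln1, an oxygen sensor that marks HIF for degradation, fell (66.5 against 88.6 FPKM, limma adjusted p = 0.0377). Thus 1 of 19 was called in TAC and 2 of 19 in the knockout, smaller shares than the 15.5% and 20.8% of all tested genes. Between knockout and TAC, Hk2, which phosphorylates glucose at the mitochondrial surface, was lower in the knockout (57.7 against 79.8 FPKM, limma adjusted p = 0.0431).

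RefSeq promoter windows of GRCm38.p6 were found for 8 of the 9 genes (11 windows). In each, 250 bases before an annotated start were searched on both strands. The only Fundc1 window lies inside the gene, downstream of the start of the transcript with the highest mean share. The bases before that start were not searched. A Dnm1l window and a Fis1 window also lie inside their genes, but these genes have another window before their first base. The letters ACGTG, a form of the core bound by HIF factors, occurred in the windows of 1 of the 8 genes, Bnip3, beside 16.6% of 32851 promoter windows. There they form the palindrome CACGTG, so that 2 overlapping matches, 1 on each strand, share its letters. The other form of the core, GCGTG, was not counted. It is present in the Pink1 window and at another place in the Bnip3 window, so a HIF core is not particular to Bnip3. AAGGTCA, the letters bound by estrogen-related receptors, occurred in the windows of none of the 8 genes (4.08% of all windows). AGNGGGC, part of the CTCF motif, also occurred in the windows of none of the 8 genes (22.4% of all windows). For Fundc1 these results cover only the window inside the gene. The Bnip3 window (chr7:138909507-138909756, minus strand) is shown because Bnip3 had the largest difference in TAC, with only the ACGTG matches in capitals.
Bnip3 promoter: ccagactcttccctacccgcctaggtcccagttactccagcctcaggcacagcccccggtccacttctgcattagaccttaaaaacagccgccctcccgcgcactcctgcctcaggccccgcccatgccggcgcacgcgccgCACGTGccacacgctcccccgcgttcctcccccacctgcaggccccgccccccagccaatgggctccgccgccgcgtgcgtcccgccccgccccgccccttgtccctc
A match describes letters in this window and is no evidence of binding.

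Across the 10 libraries, the called genes Mfn1, Opa1, Dnm1l and Pink1 were positively correlated with each other, more over all libraries than within groups. Pearson's r of log2(FPKM + 1) was 0.809 for Mfn1 and Dnm1l, 0.765 for Mfn1 and Pink1 and 0.739 for Opa1 and Dnm1l. Once group means were subtracted these values were 0.421, 0.189 and -0.108. Mff and Fis1, both DRP1 adaptors, had r = 0.411 over all libraries and 0.724 within groups. A value of that size was not particular to them: within groups Mfn1 and Bnip3l had 0.805, and Dnm1l and Fundc1 0.715. These are descriptions of 10 libraries that share their groups.

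The genes whose levels followed each of the 9 most closely over the 10 libraries were found by Pearson's r. They were Suclg2 (0.973) and Phyh (0.968) for Pink1, Actr6 (0.976) and Hspa5 (0.939) for Mfn1, Rhot2 (0.959) and Tmem251 (0.944) for Opa1, and Bdnf (0.961) and Slc25a46 (0.959) for Dnm1l. For the genes that were not called they were Psph (0.947) and Rps21 (0.936) for Mff, Wdr36 (0.982) and Glrx3 (0.957) for Fis1, Slc22a4 (0.934) for Bnip3, Lars (0.942) and Asb8 (0.929) for Bnip3l, and Sarnp (0.955) and Tubg1 (0.921) for Fundc1. Rhot2 and Slc25a46 are themselves in the mitochondrial lists above. These values are the highest of many genes compared over only 10 libraries.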

How the data were processed

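RNA was sequenced from 10 libraries of isolated cardiac myocytes. The labels name polyA RNA, whereas the extraction protocol describes ribosomal RNA removal, so the selection is uncertain. The deposited files give an FPKM, made by the authors, for each of 109869 transcripts. Per the submitters' processing notes the tools were Cufflinks 2.2.1, Cuffdiff, TopHat2 2.1.0 and Bowtie2, and the build was mm10. The deposited score column was not used.

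Transcript FPKM was summed by gene ID. IDs whose longest transcript was shorter than 300 nt were left out, as were 22 IDs that were at 0 in part of the libraries but reached 100 FPKM in others (none of the 9 genes). A median-of-ratios rescaling gave factors of 0.912 to 1.10. Genes with a mean of at least 1 FPKM, 11358 in all, entered a single fit of log2(FPKM + 1) across the 10 libraries (limma 3.58.1, R 4.3.3, variance trend). This scale understates changes of low genes such as Spire1. P-values were two-sided with Benjamini-Hochberg adjustment over the genes tested. Transcript shares (percent of the gene's FPKM) were tested likewise for 14501 transcripts with a mean of at least 1 FPKM in genes with at least 2 transcripts. The procedure was tested on simulated data.

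The 9 genes and all lists were chosen with earlier results of these data known. Named are the 9 genes, Ctcf, up to 4 called genes per list and comparison by adjusted p, the 2 most similar genes for each of the 9 (1 of them is not reported here), and transcripts with a mean share of at least 10%. Symbols, coding status and transcript names came from GENCODE M21, with which 60 of 63 transcripts of the 9 genes had identical exons.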

Additional observations from a re-analysis of the deposited data

How the results depend on the processing

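The genes were refitted under 22 alternatives (21 planned and 1, coding transcripts only, chosen after seeing the data), which gave 594 log2 differences. A call was lost in 37 of these and gained in 14. No call turned into the opposite direction, which only differences called at first could do. The count of called genes in knockout against control, 4 at first, was 2 without rescaling (Pink1, and Bnip3l as higher) and 2 with only the groups compared. It ranged from 1 to 3 when 1 library was left out (1 without control replicate 3; 2 without control replicate 2 or knockout replicate 1 or 2). Leaving out the rescaling moved the median of all genes from -0.0078 to 0.0993 on the log2 scale. In TAC against control, 1 at first, the count was 0 with no filter on the mean and 0 with only the groups compared. It was 2 with quantile normalization and 2 with the highest transcript. Without 1 library it ranged from 0 to 2 (0 without control replicate 2 or 3, knockout replicate 3 or TAC replicate 3; 2 without knockout replicate 2 or 4). Knockout against TAC gave 0 called genes under all 22. The count of called transcript shares in knockout against control, 2 at first, was 1 on a log2 ratio scale and ranged from 0 to 2 without 1 library.

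The replicate numbers share no stated origin. Correlations of the 9 same-numbered pairs ran from -0.359 to 0.327, and 1 of 10 libraries was closest to its own number. With a replicate block, the count in knockout against control was 3 (Pink1 and Mfn1 lower, Bnip3l higher), in TAC against control 1 (Bnip3 in place of Pink1), in knockout against TAC 0, and for transcript shares in the knockout 0. With the sex of the mouse as a term, Bnip3 was likewise called in TAC in place of Pink1.

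FPKM without counts gives no counting error, so precision rests on 3 or 4 libraries per group. Transcript levels are estimates from reads that transcripts share, and Mfn1, Dnm1l, Pink1, Bnip3 and Bnip3l also share sequence with other genes.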
